A study of Mus musculus with 4 samples.

Results

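The 47 genes described here act in mitosis and cytokinesis, the steps by which a cell separates its copied chromosomes and then divides. They were taken by gene symbol from a list drawn up by function, and the rule itself uses no expression value. All 47 were found among the 41342 named genes of the count table, and all 47 reached the mean of 50 counts over the libraries that 11286 genes reached and that was required for a comparison. They fall into 10 roles, from mitotic entry (6 genes) through transcription (2), chromosome proteins (2), the spindle checkpoint (4), the kinetochore (7), the chromosomal passenger complex (4), kinesins (6), spindle assembly (6) and cytokinesis (6) to anaphase (4).

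RNA was sequenced from splenic B cells of 129 mice carrying 1 of 2 deletions in the 3'RR, the regulatory region of enhancers downstream of the immunoglobulin heavy chain genes. ΔleftPAL mice lack the left part of this region, with the hs3a and hs1,2 enhancers and the repeat sequence between them. ΔIRIS mice lack the same left-side repeat sequence but keep all enhancers, with hs3a in inverted orientation. For each deletion there was 1 library from CD43-depleted splenocytes taken directly (resting) and 1 from cells of the same kind cultured for 48 h with 5 µg/ml LPS, a bacterial lipopolysaccharide that drives B cells into division. The labels describe each RNA as a pool of B cells from 4 animals, while the study's methods mention 2 pooled RNAs per genotype and its legend gives 2 experiments with 3 male mice of 8 to 12 weeks, so the number of animals behind a library is stated in more than 1 way. Both deletions are carried in the germline and are present in all cells. Libraries of wt mice are not analysed here, and nothing below compares a deletion with the intact 3'RR. With 1 library per group there is no replicate, so no p-value is given. Each ratio compares 2 libraries, and its 95% interval covers counting error only, in reads whose PCR copies are not independent molecules.

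A dividing cell enters mitosis when cyclin-dependent kinase 1, bound to cyclin A or B, is switched on. Kinetochores built on the centromeres then attach the chromosomes to spindle microtubules, the spindle checkpoint holds back the anaphase-promoting complex until attachment is complete, and separase cuts the rings that hold sister chromatids together. Most of these genes are transcribed late in the cell cycle, with the MuvB, B-Myb and FoxM1 proteins as known regulators that act through short promoter elements named CHR and through CCAAT boxes bound by NF-Y. Mature B cells of the spleen are mostly out of the cell cycle until a stimulus such as LPS reaches them.

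The libraries held 23615496 to 29776108 counts in named genes, and a floor of 3 counts corresponded to 0.102 to 0.123 CPM (read counts scaled for depth, with TMM library sizes). The 5 B cell markers (Cd79a, Cd79b, Ms4a1, Pax5 and Cd22) were present in every library, with summed levels of 3162 and 1863 CPM in resting and LPS ΔleftPAL cells and 2642 and 2024 CPM in ΔIRIS cells. The summed levels of markers of red cells, myeloid cells and T cells were higher in the resting libraries. The 5 erythroid markers summed to 37604 and 26354 CPM at rest (ΔleftPAL and ΔIRIS) against 53.9 and 113 CPM after LPS, with Klf1 at or under the floor in both LPS libraries. The 5 myeloid markers summed to 288 and 385 CPM at rest against 6.79 and 16.0 after LPS. Itgam, which made up most of the myeloid sums after LPS, went from 13.1 to 5.20 CPM in ΔleftPAL but from 10.5 to 15.4 CPM in ΔIRIS cells. The 6 T cell markers summed to 50.1 and 43.7 CPM against 18.2 and 17.2, with Cd3d, Cd3e and Cd3g at 0 counts in both LPS libraries. Lck made up most of the T cell sums after LPS, with 30.8 and 18.1 CPM in resting and LPS ΔleftPAL and 18.5 and 17.2 CPM in ΔIRIS cells, and its ΔIRIS log2 ratio of -0.11 (95% interval -0.28 to 0.07) was not distinguishable from 0. The part of these other cells in any difference between resting and LPS libraries was not tested. In bulk RNA, fewer cells of a type and less RNA per cell cannot be told apart.

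Promoter sequences show a feature that the choice of genes did not use. RefSeq promoter windows on GRCm38.p6, running from 250 bases before to 50 bases after an annotated start, were found for 39 of the 47 members in 41 windows. Ccna2, Cdc25c, Foxm1, Spc24, Aurkb, Incenp, Tpx2 and Kif20a had no entry. The stretch from 120 bases before to 50 bases after the start is printed for 7 members, 5′ to 3′ on the strand of the gene, with CHR letters (TTTGAA or TTCGAA, or TTCAAA where the match is on the other strand) and CCAAT boxes (ATTGG on the other strand) in capitals. Plk1 at chr7:122159315-122159484 (plus strand), Ccnb1 at chr13:100786437-100786606 (minus) and Mybl2 at chr2:163054515-163054684 (plus) are shown for their LPS ratios. These were the largest of the members in ΔIRIS cells (Plk1) and in ΔleftPAL cells (Mybl2), and among the 3 largest in both genotypes (Ccnb1). Cenpa at chr5:30666766-30666935 (plus) and Pttg1 at chr11:43425932-43426101 (minus) are shown because theirs are the smallest. Ccnb2 at chr9:70421505-70421674 (minus) shows a cyclin promoter with both motifs, and Kif11 at chr19:37376262-37376431 (plus) had the largest genotype ratio after LPS.
Plk1: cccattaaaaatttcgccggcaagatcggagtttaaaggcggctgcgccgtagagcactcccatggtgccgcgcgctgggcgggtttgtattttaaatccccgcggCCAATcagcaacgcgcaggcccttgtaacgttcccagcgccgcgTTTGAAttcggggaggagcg
Ccnb2: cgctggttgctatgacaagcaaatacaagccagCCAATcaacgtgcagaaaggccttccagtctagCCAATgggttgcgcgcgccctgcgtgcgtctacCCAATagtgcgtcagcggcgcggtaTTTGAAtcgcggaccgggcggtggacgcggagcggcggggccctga
Ccnb1: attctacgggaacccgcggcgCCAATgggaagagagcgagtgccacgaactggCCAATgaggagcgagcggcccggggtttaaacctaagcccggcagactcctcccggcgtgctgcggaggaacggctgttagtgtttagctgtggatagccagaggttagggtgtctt
Kif11: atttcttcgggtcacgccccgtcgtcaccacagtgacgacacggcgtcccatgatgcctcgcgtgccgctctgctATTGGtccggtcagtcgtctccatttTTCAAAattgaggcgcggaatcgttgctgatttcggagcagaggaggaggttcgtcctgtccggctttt
Cenpa: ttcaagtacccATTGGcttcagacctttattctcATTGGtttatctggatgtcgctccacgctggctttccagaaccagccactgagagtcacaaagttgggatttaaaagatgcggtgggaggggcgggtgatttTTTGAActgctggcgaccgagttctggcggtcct
Mybl2: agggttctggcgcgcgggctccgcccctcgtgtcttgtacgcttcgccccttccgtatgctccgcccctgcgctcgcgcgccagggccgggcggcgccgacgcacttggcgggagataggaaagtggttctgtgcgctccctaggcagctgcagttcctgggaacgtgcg
Pttg1: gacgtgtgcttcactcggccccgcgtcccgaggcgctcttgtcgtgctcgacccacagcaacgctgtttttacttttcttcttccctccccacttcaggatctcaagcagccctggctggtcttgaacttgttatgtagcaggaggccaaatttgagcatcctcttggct

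In the printed stretch, Ccnb2 held 3 CCAAT boxes followed by a CHR match just after the start. Plk1 and Kif11 each held 1 CCAAT box and 1 CHR match, and Cenpa held 2 CCAAT boxes on the minus strand and 1 CHR match. Ccnb1 held 2 CCAAT boxes and neither CHR spelling. Mybl2 and Pttg1 held none of these letters, which says only that they are not in these windows.

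Over all member windows, TTTGAA or TTCGAA on either strand was found in 33 of 41 (80.5%, exact 95% interval 65.1 to 91.2), belonging to 31 members. The same letters were in 19.2% of all 32851 windows of the table and in 14.2% of the 10161 windows of genes that were compared. CCAAT on either strand was in 31 of 41 member windows (75.6%, exact interval 59.7 to 87.6), against 37.4% of all windows and 38.2% of the windows of compared genes. Both motifs stood in 29 member windows, or 70.7%, against 7.52% of all windows and 5.97% of those of compared genes. Ect2 and Prc1 have 2 overlapping windows each, and a match of one motif may overlap a match of the other. Neither motif was in the windows of 6 members, Birc5, Mad2l1, Mybl2, Nuf2, Nusap1 and Pttg1. The E2F spellings TTTCCCGC, TTTGGCGC, TTTCGCGC and TTTGCCGC were in 2 member windows (4.88%, against 2.26% of all windows and 4.14% of those of compared genes), and the TATA box spelled TATAAA was in 1 (2.44%, against 13.6% and 6.67%).

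Most matches lay close to the start. Matches are counted per window, so that sites in the overlapping windows of Ect2 and Prc1 count in each, and the 46 CHR and 71 CCAAT matches stand for 43 and 67 distinct sites. The CHR matches had a median first base 16 bases before the start, and 34 of them (73.9%) began within 100 bases before it or after it. The CCAAT matches lay farther upstream, with a median of 62 bases before the start and 51 (71.8%) from 100 bases before it on. Counting only from 150 bases before the start left the CHR share of member windows at 80.5% and lowered that of all windows to 12.04%.

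**Figure D1:**
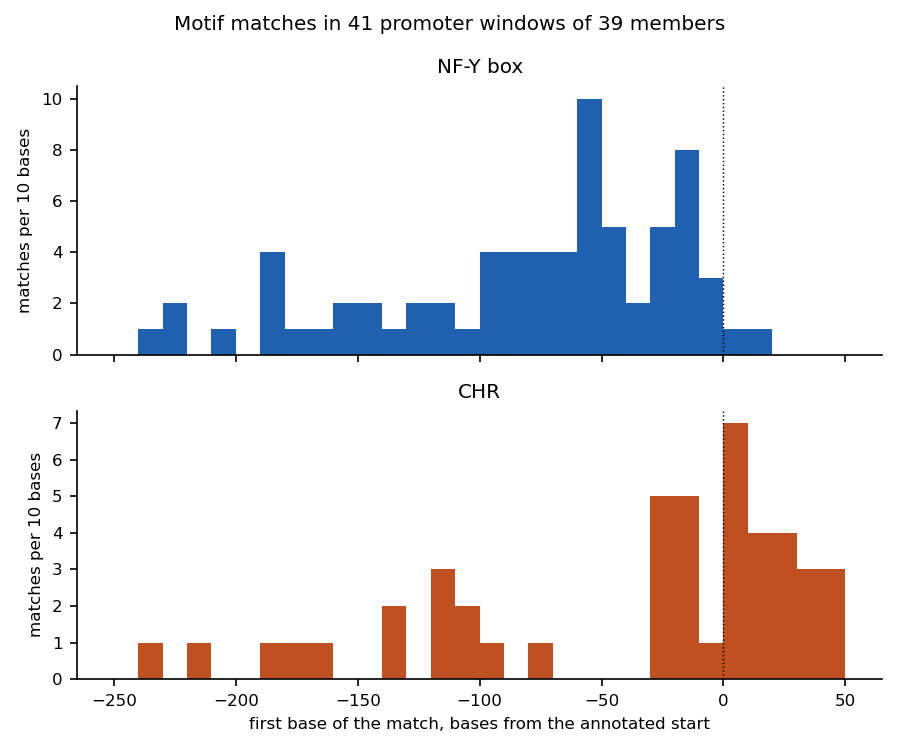
Positions of the CHR and CCAAT (NF-Y box) matches in the promoter windows of the members, as matches per 10 bases (y axis) against the first base of the match in bases from the annotated start (x axis, dotted line at the start), with sites in overlapping windows counted in each. The 46 CHR matches gather around the start (median 16 bases before it) and the 71 CCAAT matches upstream of it (median 62 bases before it).

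The first comparison asked how far the mitosis genes moved when B cells of each deletion were activated. Levels were higher after LPS in both genotypes for all members but Pttg1. The summed level of the 47 members went from 797 to 6878 CPM in ΔleftPAL cells, an 8.63-fold change, and from 969 to 7942 CPM in ΔIRIS cells, an 8.19-fold change. As a share of all counts in named genes the members took 0.0824% and 0.0982% in the resting libraries and 0.667% and 0.782% in the LPS libraries. In 46 members the lower of the LPS libraries stood above the higher of the resting ones, and Pttg1 was the exception.

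At least 2-fold higher levels after LPS, on the log2(CPM + 0.5) scale, were found for 46 of the 47 members in ΔleftPAL cells, where 20.1% of all genes compared passed the same fold. In ΔIRIS cells 45 of the 47 passed, against 21.6% of all genes. Pttg1 fell short in both and Cenpa in ΔIRIS cells, and the difference between the genotypes was not tested. At least 8-fold higher levels were found for 29 members in ΔleftPAL cells (1.58% of all genes) and 30 in ΔIRIS cells (1.58% of all genes), but for 10 and 17 with TPM and for 11 and 16 with a pseudocount of 5 CPM. The median log2 ratios of all genes were -0.22 and -0.21 with TPM and 0.088 and 0.093 with that pseudocount. Members made up 29 of the 178 genes past 8-fold in ΔleftPAL cells and 30 of the 178 in ΔIRIS cells. The median log2 ratio of LPS over resting CPM was 3.25 in ΔleftPAL cells and 3.34 in ΔIRIS cells, or 9.49-fold and 10.1-fold, while the medians of all genes compared were 0.12 and 0.13. Leaving out Pttg1 and Cenpa, the other 45 members ranged from 2.19 to 4.14 in ΔleftPAL cells and from 2.10 to 4.27 in ΔIRIS cells. The order of the members was alike in the genotypes, which share no library here, with a Pearson correlation of 0.953 and a Spearman correlation of 0.896 over the 47 members, or 0.899 and 0.882 without Pttg1 and Cenpa. Genes are not independent replicates, and these values are a description.

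**Figure D2:**
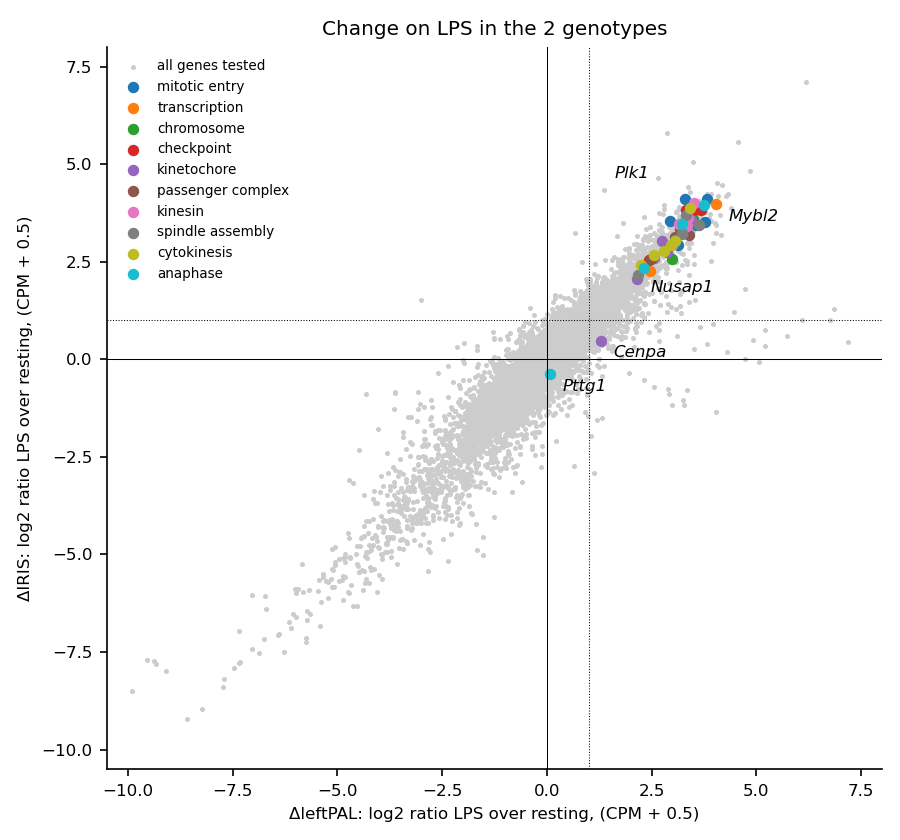
Log2 ratio of LPS over resting (CPM + 0.5) in ΔleftPAL (x axis) and ΔIRIS (y axis) cells for the 11286 genes compared (grey) and the 47 members (coloured by role), with solid lines at 0 and dotted lines at 2-fold. Members cluster at the upper right, at medians of 3.25 and 3.34 without the pseudocount, except Pttg1 and Cenpa.

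In the sentences that follow, the 4 CPM levels of a gene are given in the order resting ΔleftPAL, LPS ΔleftPAL, resting ΔIRIS and LPS ΔIRIS. Levels between genes are compared only per length, as CPM per kilobase of all counted exons of a gene. These orders depend on the length used. By kallisto TPM, which divides by the lengths of the transcripts estimated to be present, the highest gene of a role matched that per kilobase in both LPS libraries in 2 of the 10 roles (transcription and kinesins), and the lowest gene did so in 6. Where an order is stated below and TPM gave another highest gene, TPM values are added, for LPS ΔleftPAL and then LPS ΔIRIS cells unless 1 library is named.

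Among the mitotic entry genes, Ccna2 (cyclin A2), Ccnb1 and Ccnb2 (B-type cyclins), Cdk1 (their kinase), Cdc25c (a phosphatase that activates it) and Plk1 (a kinase that promotes entry and spindle function) had median LPS log2 ratios of 3.50 in ΔleftPAL and 3.77 in ΔIRIS cells. Ccna2 had 21.0, 254, 28.6 and 316 CPM and was the highest of the role per length, at 90.1 CPM per kb in LPS ΔIRIS cells, although by TPM Cdk1 was above it (180.0 and 194 TPM, against 112 and 129.5 for Ccna2). Cdc25c was the lowest, at 1.84, 17.5, 1.34 and 20.9 CPM, and its resting levels rested on 45 and 39 reads. Both genes were higher after LPS than at rest in each genotype.

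Plk1 (chr7:122159437-122169875 on mm10, plus strand) had 6.06, 64.1, 4.06 and 78.2 CPM. Its log2 ratio on LPS was 3.40 (95% interval 3.16 to 3.66) in ΔleftPAL cells and 4.27 (95% interval 4.00 to 4.55) in ΔIRIS cells, the largest of all members there. The resting ΔIRIS library was its lowest and the LPS ΔIRIS library its highest. Ccnb1 (chr13:100778650-100786570, minus strand) had 14.0, 204, 13.7 and 244 CPM and log2 ratios of 3.86 (95% interval 3.70 to 4.02) and 4.15 (95% interval 4.01 to 4.30), and was among the 3 largest in both genotypes. Cdk1 had 8.80, 126, 11.9 and 142 CPM and ratios of 3.84 and 3.57. Ccnb2 had ratios of 3.21 and 2.98.

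The 2 transcription regulators moved by different amounts. Mybl2, which encodes B-Myb (chr2:163054687-163084688, plus strand), had 5.57, 98.4, 5.71 and 96.6 CPM, with log2 ratios of 4.14 (95% interval 3.89 to 4.40) in ΔleftPAL cells, the largest of the members, and 4.08 (95% interval 3.85 to 4.32) in ΔIRIS cells. Foxm1, the forkhead factor of late cell cycle transcription, had 6.71, 39.2, 7.57 and 38.4 CPM and smaller ratios of 2.54 and 2.34. Foxm1 was also lower per length in LPS ΔIRIS cells, at 6.99 CPM per kb against 20.9 for Mybl2, and by TPM (15.7 against 46.0).

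Mki67 (Ki-67, a coat protein of mitotic chromosomes and a common marker of cycling cells) and Top2a (topoisomerase IIα, which untangles DNA) carried the largest share of the reads. Together they took 35.5% and 37.4% of the member counts in resting and LPS ΔleftPAL cells, and 39.4% and 36.9% in ΔIRIS cells. Mki67 (chr7:135689788-135716379, minus strand) had 192, 1533, 274 and 1629 CPM and Top2a 91.4, 1037, 108 and 1298 CPM. They were also the highest members per length in LPS ΔIRIS cells, at 162 and 144 CPM per kb. By TPM in that library Top2a was the highest (388), Cdk1 next and Mki67 the third (169.9). The log2 ratios on LPS were 3.0 and 2.57 for Mki67 and 3.50 and 3.59 for Top2a. Those of Top2a are uncertain, since its gene counts were 0.67 and 0.74 times the kallisto estimates at rest, against 0.92 and 0.93 after LPS. By TPM Top2a had 58.7, 335, 60.8 and 388 in the library order above, a smaller change on LPS.

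The spindle checkpoint genes Bub1 and Ttk (checkpoint kinases), Bub1b (BubR1) and Mad2l1 (MAD2, which with BubR1 holds back Cdc20) had median LPS log2 ratios of 3.52 and 3.88. Bub1b, the highest of them per length in the LPS libraries, had 18.5, 218, 15.7 and 228 CPM, with Mad2l1 at a like level by TPM (66.6 and 71.1, against 68.7 and 71.0 for Bub1b). Ttk, the lowest, had 3.52, 39.6, 2.65 and 44.0 CPM. Mad2l1 had the smallest change of the role, with log2 ratios of 2.47 and 2.59, against 3.77 and 3.90 for Bub1.

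The kinetochore genes spread widely. Cenpa, the histone H3 variant that marks centromeres, had log2 ratios of 1.30 and 0.48, whereas Nuf2 and Spc24, subunits of the NDC80 complex that binds microtubules, reached 3.44 and 3.79, and 3.61 and 3.72. Spc24 was the highest of the role per length in the LPS libraries, with 3.81, 46.5, 3.85 and 50.8 CPM in the 4 libraries, whereas by TPM Cenpa was the highest (95.2 and 98.8, against 43.0 and 45.3 for Spc24). The resting level of Spc24 and its LPS ratios are uncertain, since its gene counts at rest were 0.669 and 0.675 times the kallisto estimates. Cenpf, a large kinetochore protein and the lowest per length in the LPS libraries, had 19.0, 114, 21.5 and 134 CPM. Ndc80, which gives that complex its name, had 10.8, 49.7, 13.2 and 56.6 CPM and the third smallest ratio of the members in ΔIRIS cells, 2.10. The motor protein Cenpe and the NDC80 subunit Spc25 lay between, at 2.78 and 3.06, and 2.99 and 2.85.

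Cenpa (chr5:30666777-30674827, plus strand) stood apart through its resting level. It had 803, 2177, 1875 and 2640 reads, or 32.9, 80.8, 64.5 and 90.1 CPM. The resting ΔIRIS level was close to the LPS levels, and per length Cenpa was second only to Mki67 at rest in ΔIRIS cells, at 25.8 CPM per kb, and by TPM the highest member there (105). The log2 ratio on LPS in ΔIRIS cells was 0.48 (95% interval 0.40 to 0.57) from gene counts, 0.75 from kallisto estimated counts and -0.084 from kallisto TPM, so its direction there turned with the table used. The median of all genes in ΔIRIS cells was 0.13, 0.20 and -0.21 in the same order of tables. In ΔleftPAL cells the log2 ratio of Cenpa was 1.30 (95% interval 1.18 to 1.42) and 0.79 from TPM.

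The chromosomal passenger complex consists of the kinase Aurkb and its partners Incenp, Birc5 (survivin) and Cdca8 (borealin), and corrects faulty attachments. Its 4 genes had median log2 ratios of 3.19 and 3.23. Incenp, the highest per length in the LPS libraries, had 20.1, 114, 19.4 and 118 CPM, and Cdca8, the lowest, had 7.94, 69.6, 8.22 and 76.0 CPM. By TPM the order turned, with Birc5 the highest (122 and 127) and Incenp the lowest (40.0 and 40.1). Incenp also had the smallest ratios of the complex (2.51 and 2.60), and Birc5 in ΔleftPAL cells and Aurkb in ΔIRIS cells the largest (3.47 and 3.41).

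The 6 kinesins (Kif11, Kif15, Kif18b, Kif22, Kif2c and Kif4), motor proteins that move along or shorten spindle microtubules or bind chromosome arms, had median log2 ratios of 3.37 and 3.61. Kif11, the motor that pushes spindle poles apart (chr19:37376403-37421859, plus strand), had 24.8, 256, 31.5 and 341 CPM and was the highest per length. Kif2c, which takes microtubules apart, had 5.12, 63.3, 3.82 and 68.9 CPM, with log2 ratios of 3.63 and 4.17, the second of these among the 3 largest in ΔIRIS cells. Kif18b had 6.10, 51.5, 7.22 and 57.9 CPM and the smallest ratios of the kinesins, 3.08 and 3.0.

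The spindle assembly genes are Tpx2 and Aurka (an activator and its kinase), Hmmr, Nusap1, Ckap2 and Ckap2l (microtubule-associated proteins). Their median log2 ratios were 3.35 and 3.33. Tpx2, the highest per length after LPS, had 13.5, 140.1, 13.2 and 176 CPM, and Ckap2, the lowest, had 3.89, 40.7, 4.78 and 48.4 CPM. By TPM Nusap1 (46.7 and 53.0) was above Tpx2 (44.3 and 55.6) in LPS ΔleftPAL cells. Nusap1, with 26.1, 119.6, 31.3 and 141 CPM, had a higher resting level per length than the others of its role (6.44 and 7.70 CPM per kb) and ratios of 2.19 and 2.17. Hmmr had 8.84, 116, 13.7 and 154 CPM, and its resting values are uncertain because the gene counts were 0.39 and 0.59 times the kallisto estimates in the resting libraries.

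The cytokinesis genes act at the spindle midzone and the cleavage furrow. Prc1 bundles midzone microtubules, Kif23 and Racgap1 form centralspindlin, Ect2 activates RhoA, Kif20a is a midzone kinesin and Anln (anillin) is a scaffold of the contractile ring. Their median log2 ratios, 2.92 and 2.89, lay below those of mitotic entry (3.50 and 3.77). Kif20a, the highest per length in the LPS libraries, had 11.6, 128, 10.1 and 154 CPM, and Anln, the lowest, had 7.41, 37.0, 8.08 and 45.2 CPM. By TPM Prc1 was the highest (57.9 and 66.4, against 41.5 and 48.1 for Kif20a). Ratios in ΔleftPAL and ΔIRIS cells were 3.47 and 3.93 for Kif20a and 2.32 and 2.48 for Anln.

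The anaphase genes encode Cdc20 (the activator of the anaphase-promoting complex), Ube2c (a ubiquitin-conjugating enzyme that works with it), Pttg1 (securin, the inhibitor of separase) and Espl1 (separase). Cdc20 had 9.91, 140.1, 8.60 and 139.7 CPM, with log2 ratios of 3.82 and 4.02. Espl1 had ratios of 3.31 and 3.55 and Ube2c of 2.35 and 2.36, so these 3 genes were higher after LPS in both genotypes. Cdc20 was the highest of the role per length in the LPS libraries and Ube2c by TPM (119 and 119.5, against 94.3 and 91.8 for Cdc20).

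Pttg1 (chr11:43420250-43426251, minus strand) did not share this change. It had 384, 445, 420 and 320 reads, or 15.7, 16.5, 14.4 and 10.9 CPM, and the LPS ΔIRIS library was the lowest of the 4. On LPS its log2 ratio came to 0.07 (95% interval -0.13 to 0.27) in ΔleftPAL cells and -0.40 (95% interval -0.62 to -0.19) in ΔIRIS cells. The first interval includes 0, and the sign in ΔleftPAL cells turned when libraries were scaled by their total counts (-0.02) and in kallisto TPM (-0.06), while in ΔIRIS cells the ratio was -0.25 from kallisto estimated counts and -0.63 from TPM. The median of all genes in ΔleftPAL cells was 0.03 by total counts and -0.22 by TPM. Per length Pttg1 ranked 47th of the members in LPS ΔIRIS cells, at 5.46 CPM per kb, against 7.22 at rest, but by TPM it ranked 40th there (21.3 TPM, against 33.1 at rest).

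**Figure D3:**
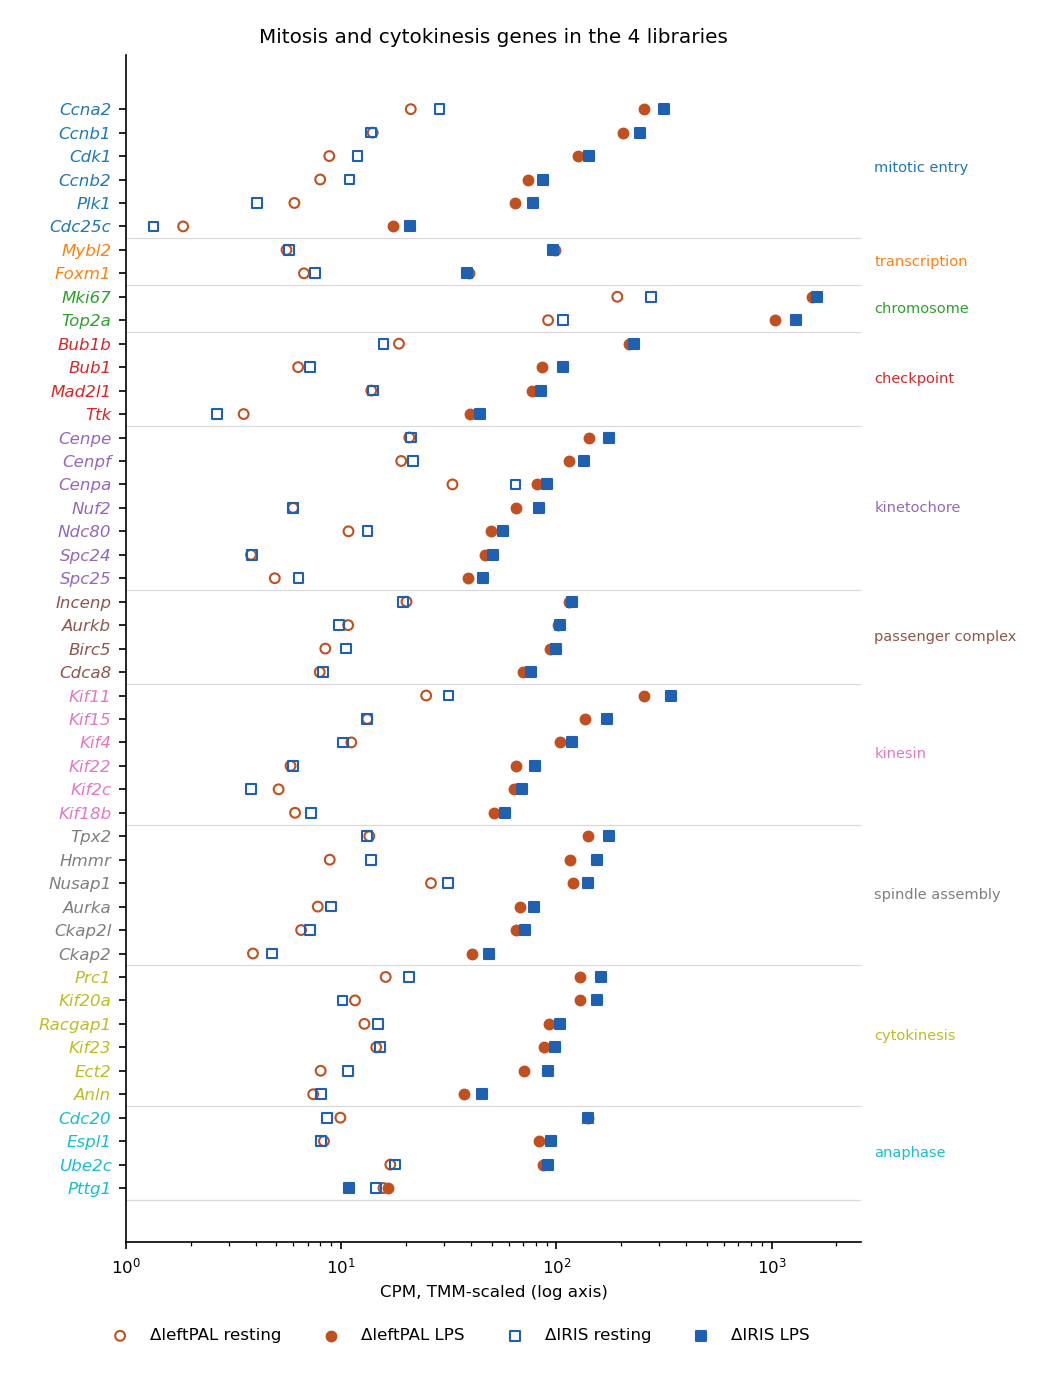
CPM (x axis, log scale) of each of the 47 members (y axis, grouped by role and ordered by level) in the resting (open) and LPS (filled) libraries of ΔleftPAL (circles) and ΔIRIS (squares) cells; each point is 1 library. The filled points lie right of the open points for every member but Pttg1, and Cenpa shows the smallest gap among the rest.

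The second comparison set ΔIRIS against ΔleftPAL within the LPS libraries. ΔIRIS keeps all enhancers and ΔleftPAL removes hs3a and hs1,2, and both lack the left-side repeat sequence. Most members were slightly higher in ΔIRIS cells. Their median log2 ratio (ΔIRIS over ΔleftPAL) stood at 0.20, or 1.15-fold, against 0.03 over all genes compared. Above 0 lay 43 members and below it 4, where 54.9% of all genes lay above 0. The interval excluded 0 on the higher side for 41 of 47 members, where 27.6% of all genes did so, and on the lower side for Pttg1 alone, where 19.4% of all genes did so. The 6 members outside the 41 were Foxm1, Mybl2, Aurkb, Incenp, Cdc20 and Pttg1. Levels at least 25% higher in ΔIRIS cells were found for 8 members (7.85% of all genes), Top2a, Nuf2, Kif11, Kif15, Tpx2, Hmmr, Prc1 and Ect2. A level at least 20% lower, the same fold downward, was found for Pttg1 (10.8% of all genes). The 8 lay near the threshold, and their number was 3 when TMM factors were computed without immunoglobulin genes, 18 with kallisto estimated counts and 2 with TPM. The median log2 ratio of all genes moved as well, to 0.004, 0.09 and -0.05 in that order.

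Kif11 had 256 CPM in LPS ΔleftPAL cells and 341 in LPS ΔIRIS cells, with a log2 ratio of 0.41 (95% interval 0.37 to 0.46), the largest of the members. Hmmr had 116 and 154 CPM and a ratio of 0.41 (95% interval 0.34 to 0.47). Ect2 had 70.7 and 90.9 CPM there, 8.02 and 10.8 CPM in the resting libraries, and a ratio after LPS of 0.36 (95% interval 0.28 to 0.45). These 3 genes, named because their ratios were the largest, serve in spindle pole separation, spindle assembly and furrow formation.

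At the other end were Foxm1 (-0.03 (95% interval -0.15 to 0.09)) and Mybl2 (-0.03 (95% interval -0.10 to 0.05)), the 2 transcription regulators, which were not distinguishable between the LPS libraries at this depth. Pttg1 was the clear exception, with 445 reads in LPS ΔleftPAL cells and 320 in LPS ΔIRIS cells and a log2 ratio of -0.60 (95% interval -0.81 to -0.39), which stayed between -0.63 and -0.51 under the other scalings and tables. By role, the median ratio was highest for cytokinesis (0.28), mitotic entry (0.26) and spindle assembly (0.24), and lowest for the passenger complex (0.07), anaphase (0.04) and transcription (-0.03).

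Mki67 and Top2a, the most abundant members, did not move alike. The ratio of Mki67 was 0.09 (95% interval 0.07 to 0.11) and that of Top2a 0.32 (95% interval 0.30 to 0.35), and the intervals do not overlap. The 5 plasmablast markers summed to 1443 CPM in LPS ΔleftPAL and 992 CPM in LPS ΔIRIS cells, with Prdm1 at 76.0 and 43.9 CPM. The 6 germinal centre markers summed to 73.5 and 93.3 CPM, with Gcsam at 0 counts in both. Their part in the genotype difference of the mitosis genes was not tested, and genotype and library cannot be told apart with 1 library per group.

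The third comparison set ΔIRIS against ΔleftPAL within the resting libraries. The members lay on both sides of 0. Their summed level was 797 CPM in ΔleftPAL and 969 CPM in ΔIRIS cells, or 1.22-fold, against 1.15-fold for the sums in the LPS libraries. The median log2 ratio was 0.07, against 0.00028 over all genes compared, with 32 members above 0 and 15 below. The interval excluded 0 on the higher side for 15 of 47 members (30.3% of all genes) and on the lower side for Plk1, Bub1b and Kif2c (27% of all genes), and it included 0 for 29. With kallisto estimated counts 1 member had an interval below 0, and the log2 ratios were -0.48 for Plk1, -0.16 for Bub1b and -0.27 for Kif2c. Levels at least 25% higher in ΔIRIS cells were found for 10 members (17.5% of all genes), Ccna2, Ccnb2, Cdk1, Mki67, Cenpa, Spc25, Kif11, Hmmr, Prc1 and Ect2, and levels at least 20% lower for Cdc25c, Plk1, Ttk and Kif2c (14.9% of all genes), or for 2 members with kallisto estimated counts. The median width of the counting interval was 0.49 on the log2 scale at rest against 0.16 after LPS, with fewer reads at rest than after LPS for all 47 members in ΔleftPAL and 46 in ΔIRIS cells (not Pttg1).

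Cenpa had the largest ratio, 0.97 (95% interval 0.85 to 1.09), from 803 reads in resting ΔleftPAL and 1875 in resting ΔIRIS cells. It lay between 0.93 and 1.00 under the other scalings and tables. Mki67 had 4684 and 7970 reads and a ratio of 0.52 (95% interval 0.46 to 0.57). Hmmr had a ratio of 0.63 (95% interval 0.39 to 0.88) from gene counts but of 0.07 from kallisto estimated counts.

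Plk1 had 148 and 118 reads and the lowest ratio, -0.58 (95% interval -0.94 to -0.22). Kif2c had 125 and 111 reads and a ratio of -0.42 (95% interval -0.80 to -0.04). The ratio of Cdc25c, -0.46 (95% interval -1.11 to 0.19), was not distinguishable from 0 on its 45 and 39 reads. All 3 had lower values in resting ΔIRIS than in resting ΔleftPAL cells and higher values in the LPS libraries, so their LPS ratios were larger in ΔIRIS cells.

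Markers of other cell types and states also differed between the resting libraries. Klf1, an erythroid transcription factor, had 4.46 CPM in resting ΔleftPAL and 8.29 CPM in resting ΔIRIS cells, whereas the globin genes Hba-a1, Hbb-bs and Hbb-bt were lower in ΔIRIS cells. The 6 germinal centre markers were all lower in resting ΔIRIS cells, with sums of 74.6 and 46.7 CPM. The 5 plasmablast markers summed to 552 CPM in resting ΔleftPAL and 848 CPM in resting ΔIRIS cells, with Irf4 at 285 and 604 CPM. The other 4 summed to 267 and 244 CPM, with Igj lower in resting ΔIRIS cells (188 and 155 CPM). Prdm1 (4.54 and 7.22 CPM) and Sdc1 (12.7 and 17.9 CPM) were higher there, while Xbp1 had 61.9 and 64.4 CPM, with an interval that included 0. Their part in the resting differences of the members was not tested.

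Genotype ratios in the LPS and in the resting libraries, which share no library, were weakly related over the 47 members, with a Pearson correlation of 0.223 and a Spearman correlation of 0.254, given as a description. The direction was the same in 32 members, which does not by itself show agreement, since most members lay above 0 in both comparisons. The LPS ratio was larger in ΔIRIS than in ΔleftPAL cells for 27 members and smaller for 20, from a difference of 0.86 for Plk1 to -0.82 for Cenpa, and these differences use the same 4 libraries as the comparisons above.

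**Figure D4:**
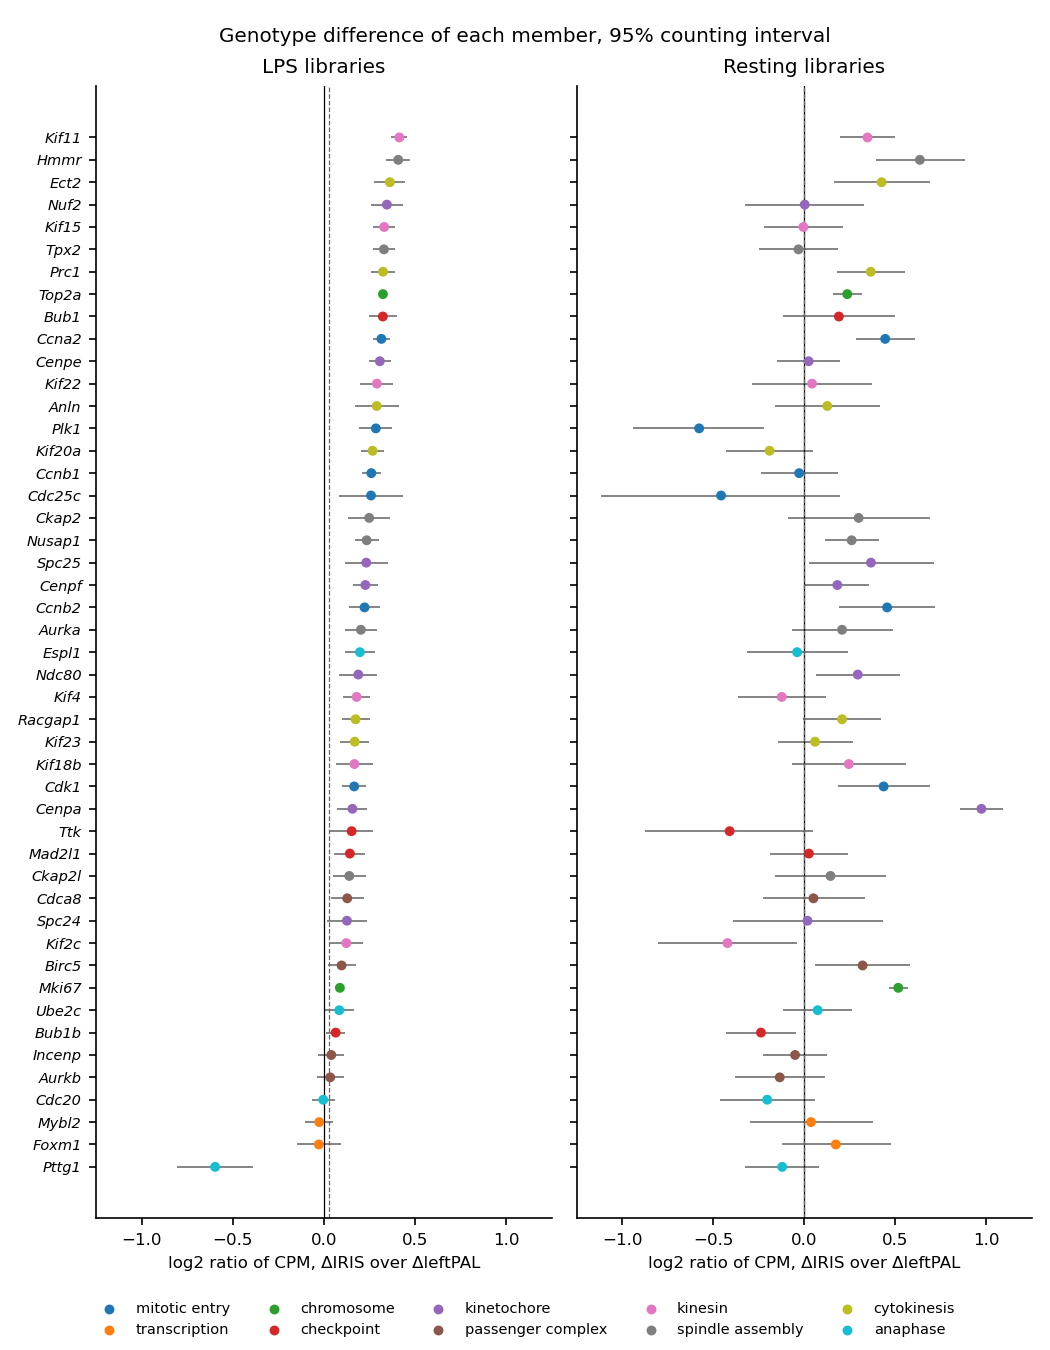
Log2 ratio of ΔIRIS over ΔleftPAL CPM (x axis) for each member (y axis, ordered by the LPS ratio, coloured by role) in the LPS (left) and resting (right) libraries, with 95% counting intervals and a dashed line at the median of all genes compared. After LPS 43 of 47 members lie above 0 (54.9% of all genes compared), and at rest the values spread from -0.58 (Plk1) to 0.97 (Cenpa).

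Transcript estimates showed which isoforms the members used. In both LPS libraries the same transcript led for all 47 members, and in 37 it held at least 80% of the estimated counts of its gene in each. Over the 4 libraries 46 members kept their leading transcript. The exception was Birc5, where ENSMUST00000081387 (947 bases) held 44.6%, 85.3%, 53.0% and 86.4% of the estimated counts in the library order above, and ENSMUST00000093906 (3334 bases) the rest. The short form was the larger in both LPS libraries and in resting ΔIRIS cells. These are estimates from single libraries. Gene counts of Birc5 were 0.60 and 0.76 times the kallisto estimates at rest, so its resting level is uncertain as well. No member differed between the tables by more than 1.5-fold in an LPS library. At rest 2 did, Hmmr and Birc5, with Spc24 and Top2a just inside that limit.

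Other genes of the same processes, on 6 lists that held 105 compared genes, had median log2 ratios of LPS over resting CPM above 0 but below those of the members. Of the 31 other kinetochore genes, 27 in ΔleftPAL and 28 in ΔIRIS cells were at least 2-fold higher after LPS (20.1% and 21.6% of all genes), with medians of 2.15 and 2.42. Cenpm had log2 ratios of 4.16 and 4.01 and Ska1 of 3.57 and 3.69, and Cenpq was the smallest at 0.64 and 0.15. Of the 17 regulators of mitotic entry and exit, 14 passed in each genotype (against the same 20.1% and 21.6%), with medians of 2.38 and 2.52, led by Nek2 (3.70 and 4.12), a centrosome kinase, and Gtse1 (4.20 and 3.57), while Ensa, an inhibitor of the phosphatase PP2A, stood at -0.04 and -0.13.

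Condensin and cohesin, the ring complexes that compact chromosomes and hold sister chromatids, had 12 and 13 of 19 genes past 2-fold (20.1% and 21.6% of all genes) and a median of 1.19 in each genotype. Ncapg, a condensin subunit, had ratios of 3.52 and 3.74, and Cdca5 (sororin), which protects cohesion, 3.57 and 3.41, whereas the cohesin subunit Stag2 had 0.07 and 0.03. The anaphase-promoting complex and its regulators had 5 and 6 of 17 genes past 2-fold, where 20.1% and 21.6% of all genes compared passed. Its inhibitor Fbxo5 had ratios of 2.34 and 2.15 and the enzyme Ube2s 2.11 and 1.79, against -0.02 and 0.19 for the core subunit Anapc2.

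The DREAM and MuvB list, the regulators of late cell cycle genes, held members in both directions, with 3 and 5 of 12 genes at least 2-fold higher and 1 at least 2-fold lower in each genotype, against 20.1% and 21.6% of all genes higher and 15.5% and 17.3% lower. Tfdp1, a partner of E2F factors, had ratios of 3.19 and 3.63, and its relative Tfdp2 of -2.25 and -2.65. Mybl1 (A-Myb) had 13.8, 22.3, 2.51 and 27.6 CPM. Its resting level differed between the genotypes, with 338 and 73 reads and a log2 ratio of -2.46. Other cytokinesis genes, without the 3 septin genes of the list, which were not matched by symbol, had 4 of 9 past 2-fold in each genotype (20.1% and 21.6% of all genes), with Cep55 (3.41 and 3.66), an abscission protein, and Kif14 (3.17 and 3.15) the largest and the myosin heavy chain Myh9 (-0.46 and -0.70) the smallest. Of 3 relatives of members used mainly in germ cells, Ccna1 and Ccnb3 had 0 counts in all libraries, which allows up to 0.102 to 0.123 CPM, and Aurkc had 11, 6, 7 and 4 reads.

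**Figure D5:**
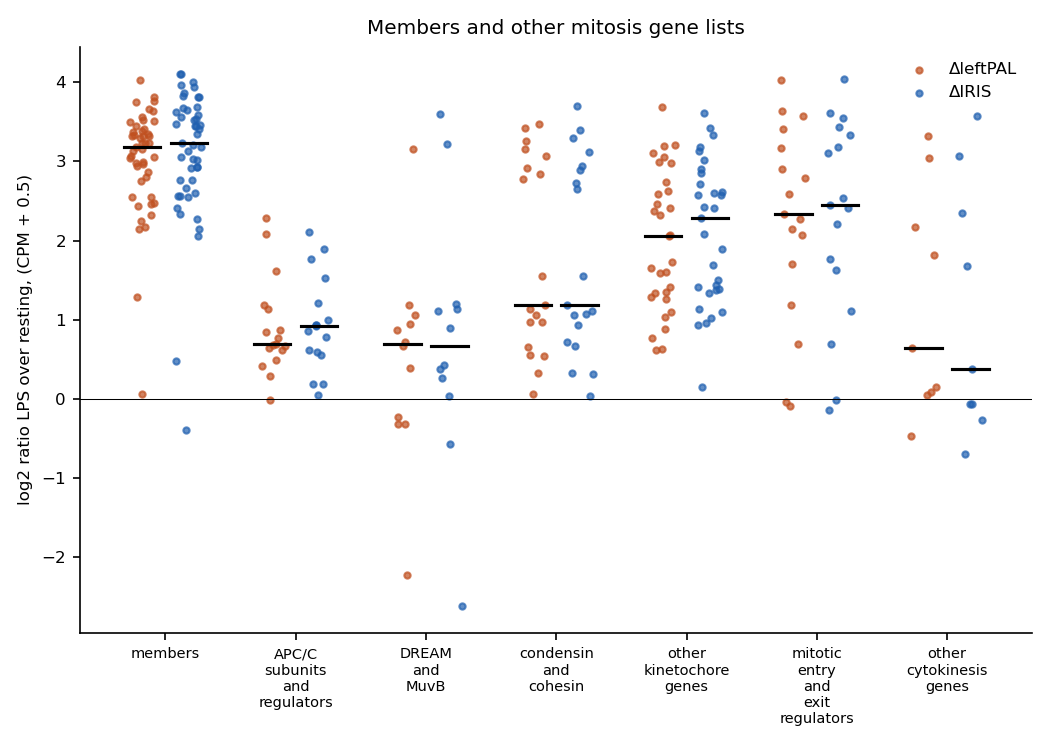
Log2 ratio of LPS over resting (CPM + 0.5, y axis) for the 47 members and the genes of 6 other lists (x axis) in ΔleftPAL (orange) and ΔIRIS (blue) cells; each point is 1 gene and each bar the list's median. The members sit highest, followed by the regulators of mitotic entry and exit and the other kinetochore genes.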

How the data were processed

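Total RNA of the 4 libraries was depleted of ribosomal RNA, made into stranded libraries (TruSeq) and sequenced as paired 150-base reads. Per the labels and the study's methods, the authors aligned reads to mm10 (GRCm38) with STAR 2.4.0a and deposited whole read counts per gene symbol (Ensembl release 77; featureCounts of Subread 1.4.6-p1, which assigned strand and counted the primary alignment of multimapped reads), so reads from near-identical copies may be placed on one of them. They also deposited kallisto 0.42.3 estimated counts and TPM per transcript, summed per gene here after matching names. 1 row of the count table without a gene name, holding 0.00876% to 0.0264% of the counts, was left out. No column of per-sample values was left unused (0). The depth ran from 23615496 to 29776108 counts.

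Groups came from the labels, with 1 library each. No edgeR or DESeq2 test was run, since no group has a replicate; an additive model of genotype and LPS, which would leave 1 residual degree of freedom, was not used. Counts were scaled by TMM (edgeR 4.0.16; factors 0.970 to 1.03) over the 4 libraries. A log2 ratio is that of CPM. Its interval is the exact Clopper-Pearson interval of the share of reads (scipy 1.17.1) on the log2 scale. Calls at 2-fold, 8-fold and 25% higher (20% lower) used log2(CPM + 0.5), which understates changes of low genes, among genes averaging 50 or more counts over the libraries. The interval and a 2-fold call were tried on simulated counts with counting error only, for ΔIRIS over ΔleftPAL in the LPS libraries. Such counts cannot show how far replicate libraries would differ, and the 8-fold and 25% calls were not simulated. Per-length levels used the exon lengths of the count table.

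The members and all lists were chosen with earlier results of these data known. Named were all members by role, with values in every library for the highest and lowest per length of each role and the 3 largest and 3 smallest ratios of each comparison, and from each other list the 2 largest and 1 smallest LPS ratios. Other names in the text (Mad2l1, Espl1, Ube2c and the like) complete a role. Markers and Hba-a1, Hbb-bs, Hbb-bt, Klf1, Itgam, Lck, Prdm1, Sdc1, Xbp1, Irf4, Igj and Gcsam were chosen after their values were seen. 1 B cell and 1 erythroid marker of the lists are not reported here and were left out of the summed levels. Alternatives were other scalings (total counts, DESeq2 1.42.0 size factors, TMM without immunoglobulin genes), the kallisto tables, a pseudocount of 5 CPM, other minimum counts and a shorter promoter window.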

Additional observations from a re-analysis of the deposited data

Results flagged for a closer look

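Pttg1 (securin) had LPS changes of opposite sign in ΔleftPAL and ΔIRIS cells. Its log2 ratio on LPS was 0.07 in ΔleftPAL cells and -0.40 in ΔIRIS cells, a difference of -0.48. With 1 library per group the difference was not tested. The ΔleftPAL ratio lay within counting error of 0, and its sign turned under scaling by total counts and in TPM.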

How the results depend on the processing

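No fit with a replicate block was made, because each group has 1 library and the labels give no replicate numbers, and an additive model of genotype and LPS was not used. The counts of members at least 2-fold higher on LPS stayed at 45 or 46 in ΔleftPAL and at 45 in ΔIRIS cells under the 10 alternatives tried. Members at least 8-fold higher numbered 10 (ΔleftPAL) and 17 (ΔIRIS) with TPM and 11 and 16 with a pseudocount of 5 CPM, which lowers ratios of low genes by construction. The median LPS log2 ratios were then 2.87 and 2.91 (TPM) and 2.61 and 2.68 (5 CPM). TPM also moved the median of all genes to -0.22 and -0.21, against 0.12 and 0.13 from gene counts. Between the LPS libraries the median genotype ratio of the members ranged from 0.15 to 0.27 and between the resting ones from 0.04 to 0.09. Members at least 25% higher in LPS ΔIRIS cells numbered 3 (TMM without immunoglobulin genes), 18 (kallisto estimated counts) and 2 (TPM), and at rest with estimated counts 2 members were at least 20% lower and 1 had an interval below 0. For all genes the median log2 ratio between the LPS libraries was 0.004, 0.09 and -0.05 under the first 3 of these settings. Of 940 values of single members under the other scalings and tables, 785 stayed within their counting interval, 154 moved outside it and 1 whose interval excluded 0 reversed (Cenpa on LPS in ΔIRIS cells, -0.084 with TPM). The sign changed in 29 of the values, 28 of them with an interval that included 0, Pttg1 on LPS in ΔleftPAL cells among them. The cause was not tested. Depth limits the resting values most, where Cdc25c rested on 45 and 39 reads.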
